A study of Homo sapiens with 18 samples.

Results

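ER-associated degradation (ERAD) is the route by which misfolded proteins leave the endoplasmic reticulum (ER) for the proteasome. Lectins and mannosidase-like proteins in the ER lumen recognize misfolded glycoproteins, a membrane ubiquitin ligase built around SYVN1 (HRD1) and its partner SEL1L receives them, Derlins help to form the passage through the membrane, and cytosolic factors extract and degrade them. Many of these genes are known targets of the unfolded protein response, the transcriptional program that follows ER stress. Expression of 10 ERAD genes was examined: the recognition genes EDEM1, EDEM2, EDEM3 and OS9, the ligase complex genes SYVN1, SEL1L and HERPUD1, and the Derlins DERL1, DERL2 and DERL3. They were taken by symbol from a table of raw read counts with 28266 gene rows, in which all 10 were found. Each row was followed across 18 RNA-seq libraries in 6 groups of 3.

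The cells were IMR90 ER:RAS, a human lung fibroblast line carrying a retrovirally delivered fusion of the oestrogen receptor domain with oncogenic RAS, so that 4-hydroxytamoxifen (4OHT) activates RAS and brings the cells into oncogene-induced senescence. All 6 groups carried this fusion. For 7 days cells received 100 nM 4OHT (senescent) or DMSO, the solvent (control), and for 3 further days they received IMP1088 at 300 nM, DDD86481 at 1.5 µM or DMSO, and RNA was collected on day 10. IMP1088 and DDD86481 both inhibit N-myristoyltransferases, the enzymes that attach myristate to the N terminus of proteins. The groups are called control DMSO, control IMP1088, control DDD86481, senescent DMSO, senescent IMP1088 and senescent DDD86481, and the question was how the ERAD genes differed with senescence and with either inhibitor in each state.

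Each library held 16143716 to 23189950 counts. Levels are given as CPM, the counts of a gene relative to the size of its library, scaled by the TMM method, and 3 counts in a library corresponded to 0.121 to 0.187 CPM. After a filter on low counts 14341 genes were tested, all 10 ERAD genes among them, although DERL3 passed only through the libraries treated with an inhibitor. No pair of libraries in a group agreed within sampling noise (chi-square per gene of 4.89 to 98.8). The largest value was for control DMSO replicates 1 and 3, and control DMSO replicate 3 also stood apart on the third principal component (57.3, against 14.8 and 27.8 for the other 2 libraries of its group), so results that involve control DMSO were also computed without it. The sample labels do not say that replicates came from separate cultures, while a legend in the study's supplement describes the replicates of these data as independent experiments. The p-values measure the spread between these libraries. Fibroblast markers summed to 20278 to 37900 CPM in every library, with COL1A1, COL6A2 and VIM among the most abundant. Their sum was 27516 to 28816 CPM in senescent DMSO, 20552 to 21948 in senescent IMP1088 and 20278 to 21563 in senescent DDD86481. In control cells it was 25128 to 32363 CPM with DMSO, 32059 to 34443 with IMP1088 and 31652 to 37900 with DDD86481. In senescent DMSO against control DMSO, 4 endothelial markers summed to 24.6 to 33.9 against 1.09 to 1.89 CPM, mostly CLDN5, and 5 leukocyte markers to 119 to 150 against 15.0 to 19.8 CPM, mostly the lysosomal gene CD68. The 4 plasma cell markers summed to 49.1 to 67.6 CPM in senescent DMSO against 33.1 to 37.1 CPM in control DMSO, mostly SDC1 (58.5 and 34.7 CPM on average). In all 18 libraries the leukocyte marker CD3E and the plasma cell marker MZB1 had no count, and the epithelial markers KRT5, KRT14 and SFTPC had none. The part of these markers in the results was not tested.

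The summed level of the 10 ERAD genes was higher in every group that received an inhibitor than in its DMSO group, although not every gene was called. It was 750 to 848 CPM in control DMSO, 1242 to 1341 in control IMP1088, 1165 to 1561 in control DDD86481, 946 to 1055 in senescent DMSO, 1713 to 1772 in senescent IMP1088 and 1560 to 1692 in senescent DDD86481. Neither the senescent DMSO libraries nor any inhibitor group overlapped control DMSO, and both senescent inhibitor groups lay above senescent DMSO. Because the RNA came from whole cultures and the scale is relative to all reads, fewer cells of a type and less RNA per cell cannot be told apart. With IMP1088 in senescent cells 7 of the 10 genes rose and none fell, at an adjusted p under 0.05 in edgeR's quasi-likelihood test, where 20.6% of all genes tested were called higher and 23.9% lower. With DDD86481 in senescent cells 8 rose and none fell, against 20.1% of all genes called higher and 23.1% lower. In control cells 7 rose and none fell with IMP1088, against 16.3% higher and 17.4% lower, and 7 rose and none fell with DDD86481, against 17.8% higher and 18.7% lower. Between senescent and control cells in DMSO 5 rose and 1 fell, where 32.5% of all genes were called higher and 36.0% lower. DERL3, which passed the filter only through the libraries where it was high, is among the genes counted as higher in each of these 5 comparisons, and the counts without it are 6, 7, 6, 6 and 4. The median log2 fold change of the 10 genes was 0.72 with IMP1088 in senescent cells (−0.043 over all genes tested), 0.68 with DDD86481 in senescent cells (−0.037), 0.83 with IMP1088 in control cells (−0.0011), 0.88 with DDD86481 in control cells (0 over all genes) and 0.24 with senescence (−0.051). These medians include DERL3. Without it the middle values were 0.57, 0.59, 0.77, 0.82 and −0.0054 in the same order. The median with senescence thus rested on DERL3 and shows no shift of the set, while the inhibitor medians stayed positive. With senescence 5 of the 10 log2 fold changes were positive, DERL3 among them, and 5 were negative.

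**Figure D1:**
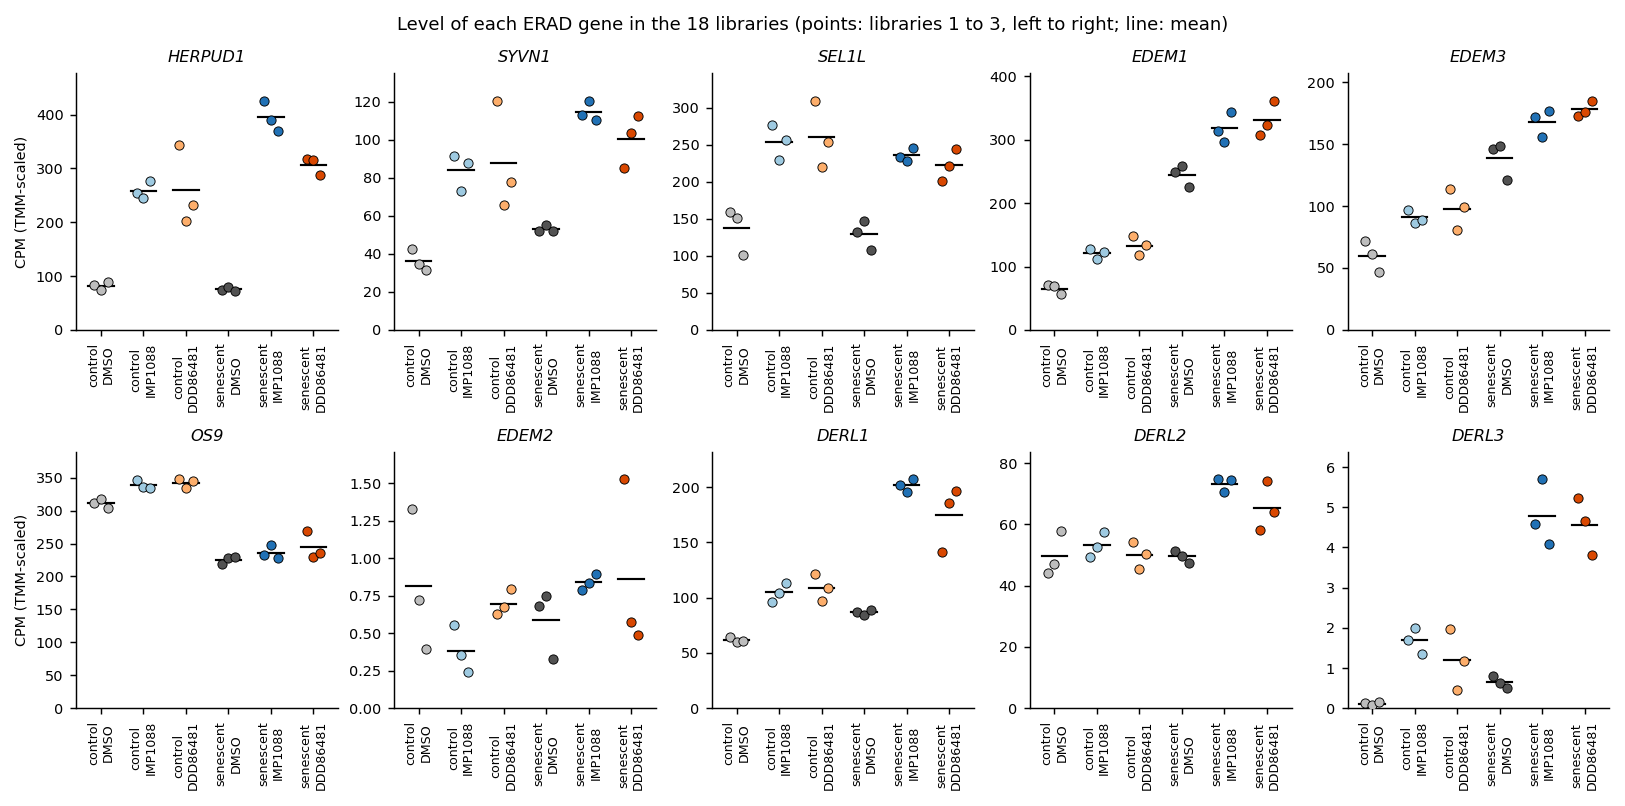
Level of each ERAD gene, in TMM-scaled CPM on an axis from 0, in the 18 libraries; points are the 3 libraries of a group in replicate order and the line is their mean. HERPUD1, SYVN1 and SEL1L are high in all 4 inhibitor groups, EDEM1 and EDEM3 are high in the 3 senescent groups, and OS9 is high in the 3 control groups.

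HERPUD1, an ER membrane protein with a ubiquitin-like domain that is known to organize the SYVN1 complex, showed the largest rise of any ERAD gene with substantial counts. It stood at 83.6, 74.1 and 89.0 CPM in control DMSO and at 73.3, 80.2 and 73.2 CPM in senescent DMSO. With IMP1088 it reached 254, 245 and 277 CPM in control cells and 426, 390 and 369 CPM in senescent cells. With DDD86481 it reached 343, 202 and 233 CPM in control cells and 317, 315 and 288 CPM in senescent cells. All 12 inhibitor-treated libraries lay above all 6 DMSO libraries, and senescent IMP1088 lay above every other group. In senescent cells the log2 fold change was 2.39 ± 0.14 (SE, n = 3 against 3, edgeR adjusted p = 2.11e-10) with IMP1088 and 2.02 ± 0.14 (adjusted p = 1.75e-09) with DDD86481, which is 5.22-fold and 4.06-fold. In control cells it was 1.65 ± 0.14 (adjusted p = 3.17e-08) and 1.66 ± 0.14 (adjusted p = 3.28e-08), or 3.14-fold and 3.15-fold. Among the 14341 genes ordered from the largest rise, HERPUD1 held place 147 and place 185 in senescent cells and place 123 and place 129 in control cells, for IMP1088 and DDD86481 in turn. HERPUD1 was not called with senescence, where the log2 fold change was −0.12 (95% interval −0.41 to 0.16, adjusted p = 0.442).

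The HERPUD1 promoter is shown because this gene rose most with the inhibitors among the ERAD genes with substantial counts, beside those of SEL1L, which rose in the same comparisons, and OS9, which was called with neither inhibitor. Each sequence is the 250 bases before the RefSeq start site in GRCh38.p14, on the gene's strand: chr16:56931892-56932141 (plus strand) for HERPUD1, chr14:81533854-81534103 (minus strand) for SEL1L and chr12:57693882-57694131 (plus strand) for OS9. Capitals mark the motifs found, which are CCAAT boxes in SEL1L and OS9 and 3 kinds of motif in HERPUD1.
HERPUD1: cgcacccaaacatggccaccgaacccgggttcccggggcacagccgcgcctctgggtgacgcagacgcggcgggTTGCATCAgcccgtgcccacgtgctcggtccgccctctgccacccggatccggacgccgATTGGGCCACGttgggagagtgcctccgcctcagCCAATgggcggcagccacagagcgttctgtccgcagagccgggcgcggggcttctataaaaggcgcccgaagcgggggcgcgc
SEL1L: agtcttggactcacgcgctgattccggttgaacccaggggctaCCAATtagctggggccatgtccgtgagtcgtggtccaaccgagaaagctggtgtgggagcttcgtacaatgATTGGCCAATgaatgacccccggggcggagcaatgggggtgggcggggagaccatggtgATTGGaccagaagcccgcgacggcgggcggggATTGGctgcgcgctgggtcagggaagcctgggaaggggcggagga
OS9: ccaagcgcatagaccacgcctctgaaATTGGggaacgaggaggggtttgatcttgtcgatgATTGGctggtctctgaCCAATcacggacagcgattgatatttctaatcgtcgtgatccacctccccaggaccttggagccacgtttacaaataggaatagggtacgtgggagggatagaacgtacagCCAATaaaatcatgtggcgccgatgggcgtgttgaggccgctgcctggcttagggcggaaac
RefSeq promoters were matched for 8 of the 10 genes (DERL1 and DERL3 were not matched), and 5 motifs were searched on both strands. Only exact matches of the letters given were counted, with N standing for any base. HERPUD1 held the ER stress response element II (ERSE-II, ATTGGNCCACG) with its first base at −117 from the start site, a motif in 0.0513% of 35093 promoters of this length, and no other matched ERAD gene held it. HERPUD1 was also the only matched gene with the ATF4 element TTGCATCA, at −176, which 0.772% of promoters held. The original ERSE (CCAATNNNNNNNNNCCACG) and the unfolded protein response element UPRE (TGACGTGG) were in none of the 8, and in 0.0741% and 0.613% of all promoters. The CCAAT box, which overlaps both ERSE forms, was in 6 of the 8 and in 32.0% of all promoters, with 5 copies in SEL1L and 4 in OS9. SEL1L was called higher in 4 of 4 inhibitor comparisons and OS9 in 0 of 4. A match is a description of the letters only.

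SYVN1, the ubiquitin ligase of the complex, had levels of 42.3, 34.6 and 31.3 CPM in control DMSO and 51.8, 54.9 and 52.1 CPM in senescent DMSO. These groups did not overlap, and SYVN1 rose with senescence by a log2 fold change of 0.55 ± 0.17 (adjusted p = 0.00666). With IMP1088 it stood at 91.5, 72.8 and 87.9 CPM in control cells and at 113, 120 and 110 CPM in senescent cells. With DDD86481 it stood at 120, 65.4 and 77.8 CPM in control cells and at 85.1, 104 and 113 CPM in senescent cells. Every inhibitor-treated library was above every DMSO library. The log2 fold change was 1.22 ± 0.17 (adjusted p = 1.53e-05) and 1.28 ± 0.17 (adjusted p = 9.04e-06) with IMP1088 and DDD86481 in control cells, and 1.11 ± 0.17 (adjusted p = 1.91e-05) and 0.92 ± 0.17 (adjusted p = 0.000153) in senescent cells. The spread was widest in control DDD86481, where replicate 1 was the highest library and replicate 2 the lowest for HERPUD1, SYVN1 and SEL1L alike.

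SEL1L, the adaptor that holds SYVN1 to its substrates, was at 159, 151 and 102 CPM in control DMSO and at 133, 148 and 108 CPM in senescent DMSO. Both groups overlapped and the log2 fold change with senescence was −0.087 (95% interval −0.40 to 0.23, adjusted p = 0.622). It reached 277, 230 and 256 CPM in control IMP1088, 310, 220 and 254 CPM in control DDD86481, 234, 228 and 246 CPM in senescent IMP1088 and 202, 221 and 244 CPM in senescent DDD86481. No DMSO library reached any of these. The log2 fold change was 0.89 ± 0.15 (adjusted p = 0.000145) and 0.93 ± 0.15 (adjusted p = 9.26e-05) in control cells, and 0.87 ± 0.15 (adjusted p = 0.000102) and 0.78 ± 0.15 (adjusted p = 0.000306) in senescent cells, for IMP1088 and DDD86481 in turn. Of the 6 DMSO libraries control DMSO replicate 3 was the lowest, and without it the rise of all 3 ligase complex genes with either inhibitor in control cells was still called.

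**Figure D2:**
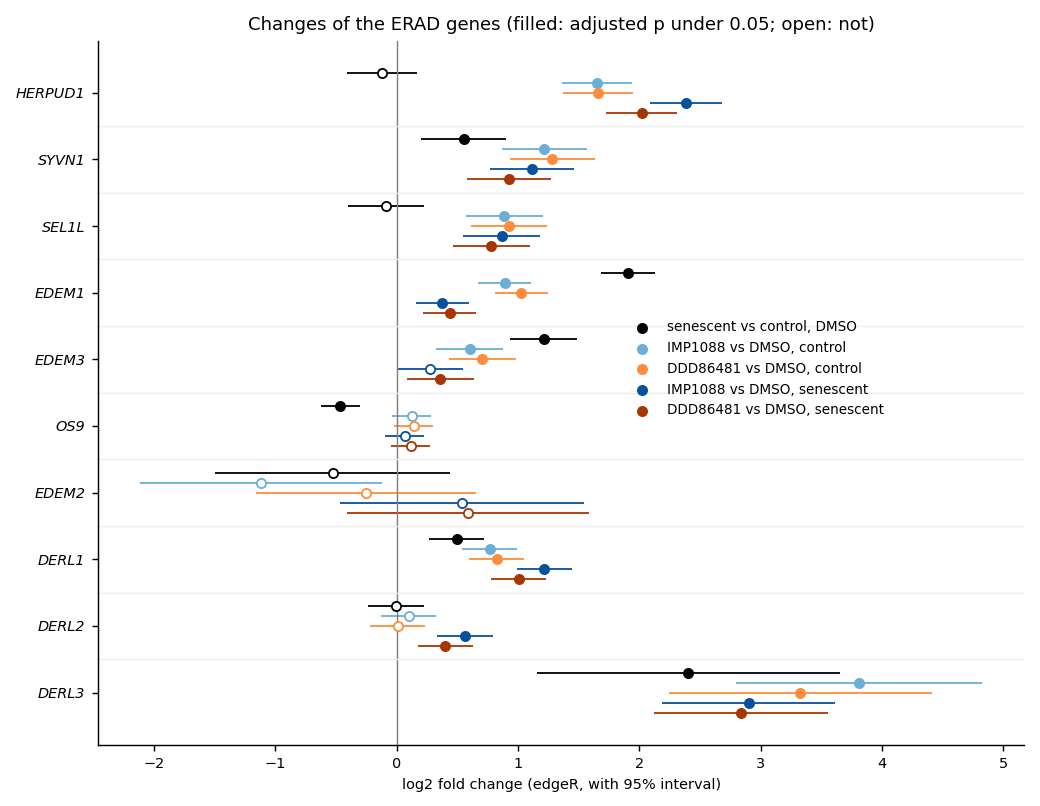
Log2 fold change of each ERAD gene with its 95% interval in the 5 comparisons of group pairs, from edgeR with 3 libraries a group; filled points passed an adjusted p of 0.05 and open points did not. HERPUD1 lies at 1.65 to 2.39 in the 4 inhibitor comparisons and near 0 with senescence, while EDEM1 lies at 1.90 with senescence and at 0.38 to 1.03 with the inhibitors.

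The Derlins are related multi-spanning membrane proteins, and their transcripts differed in level and in response. DERL1 was at 64.3, 59.8 and 61.0 CPM in control DMSO and at 86.9, 84.8 and 88.8 CPM in senescent DMSO, without overlap, and rose with senescence by a log2 fold change of 0.49 ± 0.11 (adjusted p = 0.000426). It was at 96.5, 105 and 114 CPM in control IMP1088, 121, 97.2 and 109 CPM in control DDD86481, 202, 196 and 207 CPM in senescent IMP1088 and 142, 185 and 196 CPM in senescent DDD86481. Each inhibitor group lay above the DMSO group of its state. The log2 fold change was 0.77 ± 0.11 (adjusted p = 1.86e-05) and 0.82 ± 0.11 (adjusted p = 8.91e-06) in control cells, and 1.22 ± 0.11 (adjusted p = 2.87e-08) and 1.01 ± 0.11 (adjusted p = 3.56e-07) in senescent cells.

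DERL2 was at 44.3, 47.1 and 57.9 CPM in control DMSO, 49.5, 52.8 and 57.4 CPM in control IMP1088, 54.4, 45.4 and 50.3 CPM in control DDD86481 and 51.5, 49.6 and 47.5 CPM in senescent DMSO. These 4 groups overlapped, and none of the 3 comparisons among them was called (log2 fold changes of 0.098, 0.0096 and −0.0054). In senescent cells DERL2 reached 74.8, 70.7 and 74.4 CPM with IMP1088 and 58.3, 74.0 and 64.1 CPM with DDD86481, all above senescent DMSO. The log2 fold change was 0.57 ± 0.11 (adjusted p = 0.000293) with IMP1088 and 0.40 ± 0.11 (adjusted p = 0.00556) with DDD86481.

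DERL3, which is best known from secretory tissues, was close to the limit of detection. It had 2 to 3 counts a library in control DMSO, 9 to 13 in senescent DMSO, 28 to 45 in control IMP1088, 8 to 38 in control DDD86481, 73 to 102 in senescent IMP1088 and 62 to 96 in senescent DDD86481. From the summed counts of 3 libraries the level was 14.8 times that of control DMSO in control IMP1088 (exact 95% interval 7.25 to 35.2, counting error only) and 10.6 times in control DDD86481 (5.10 to 25.5). Against senescent DMSO it was 7.55 times as high in senescent IMP1088 (5.22 to 11.3) and 7.24 times in senescent DDD86481 (5.00 to 10.8), and senescent DMSO was 5.53 times control DMSO (2.50 to 13.9). These ratios are a description, since the filter kept DERL3 only for the groups where it was high. In an annotation of GRCh37, 77.0% of the exonic bases of DERL3 on chromosome 22 lie over SMARCB1 on the opposite strand, and the library kit marks strand. The study's methods give a first-strand setting for one of the pipelines described and the processing notes give none for the other, so whether the counts used strand is not settled. SMARCB1 was at 83.2 to 106 CPM on average per group and was called in none of these 5 comparisons, with log2 fold changes of −0.19 to −0.15. In absolute terms DERL3 stayed minor, at 4.79 ± 0.83 CPM (SD) in senescent IMP1088 against 202 ± 5.79 for DERL1 in the same libraries.

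EDEM1 and EDEM3, mannosidase-like proteins that mark misfolded glycoproteins for ERAD, differed from the ligase complex genes in that their largest rise came with senescence. EDEM1 was at 70.1, 68.5 and 57.3 CPM in control DMSO and at 250, 259 and 226 CPM in senescent DMSO. The groups were far apart, and the log2 fold change was 1.90 ± 0.11 (3.74-fold, adjusted p = 2.64e-12). With IMP1088 EDEM1 stood at 128, 113 and 123 CPM in control cells and 313, 297 and 344 CPM in senescent cells, and with DDD86481 at 148, 118 and 133 CPM and at 308, 324 and 362 CPM. Each inhibitor group lay above the DMSO group of its state, and every senescent library lay above every control library whatever the drug. The log2 fold change was 0.89 ± 0.11 (adjusted p = 2.76e-06) and 1.03 ± 0.11 (adjusted p = 4.72e-07) in control cells, but 0.38 ± 0.10 (adjusted p = 0.0053) and 0.44 ± 0.10 (adjusted p = 0.00182) in senescent cells.

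EDEM3 followed the same order of groups at a lower level. It was at 71.5, 61.0 and 46.9 CPM in control DMSO and 146, 149 and 121 CPM in senescent DMSO, with a log2 fold change of 1.21 ± 0.13 (adjusted p = 9.19e-08). In control cells it reached 96.6, 86.7 and 89.1 CPM with IMP1088 and 113, 80.6 and 99.0 CPM with DDD86481, and it rose with both (0.60 ± 0.13, adjusted p = 0.00162, and 0.71 ± 0.13, adjusted p = 0.000373). In senescent cells it was at 172, 156 and 177 CPM with IMP1088 and 173, 176 and 185 CPM with DDD86481. Both groups lay above senescent DMSO, yet the difference with IMP1088 was not called (0.28, 95% interval 0.0056 to 0.55, adjusted p = 0.0906), and that with DDD86481 was (0.36 ± 0.13, adjusted p = 0.0308). The DDD86481 call was lost without senescent DMSO replicate 3 (0.27, adjusted p = 0.149), without senescent DDD86481 replicate 2 (0.37, adjusted p = 0.06) and without senescent DDD86481 replicate 3 (0.33, adjusted p = 0.081).

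OS9, a lectin that delivers glycoproteins to SEL1L, was the only ERAD gene that fell with senescence. It was at 311, 317 and 304 CPM in control DMSO and at 219, 229 and 229 CPM in senescent DMSO, without overlap, and fell by 0.46 on the log2 scale (SE 0.077, adjusted p = 2.14e-05). It was at 347, 336 and 334 CPM in control IMP1088 and 348, 335 and 345 CPM in control DDD86481. These libraries all lay above control DMSO by a small margin, and neither difference was called (log2 fold changes of 0.12, 95% interval −0.037 to 0.28, and 0.14, −0.021 to 0.30). In senescent cells it was at 232, 248 and 228 CPM with IMP1088 and 269, 229 and 235 CPM with DDD86481, again not called (0.067, −0.094 to 0.23, and 0.12, −0.043 to 0.28). In the annotation of GRCh37, 15.9% of the exonic bases of OS9 lie over AGAP2-AS1 on the same strand. The AGAP2-AS1 row held 9.65 to 24.9 CPM and fell by 0.55 on the log2 scale with senescence (adjusted p = 0.00047). With IMP1088 and DDD86481 it rose by 0.86 and 0.70 in senescent cells and by 0.50 and 0.43 in control cells, and each rise was called. The part of AGAP2-AS1 in the OS9 row was not tested.

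The EDEM2 row held 5 to 33 counts a library and passed no test. Its mean level ranged from 0.384 ± 0.16 CPM (SD) in control IMP1088 to 0.865 ± 0.58 CPM in senescent DDD86481, and the groups overlapped. RefSeq lists a read-through gene, MMP24-AS1-EDEM2, over the whole span of EDEM2, and that row too held only 6 to 26 counts a library. Whether reads shared by both genes were left uncounted was not tested, and the row may not measure the level of EDEM2. Without control DMSO replicate 3 the row would be called lower with IMP1088 in control cells (log2 fold change −1.41, adjusted p = 0.026).

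The response to IMP1088 differed between senescent and control cells for 4 ERAD genes, by a test of the difference itself. HERPUD1 rose more in senescent cells, by 0.73 ± 0.19 on the log2 scale (adjusted p = 0.00867), as did DERL1 (0.45 ± 0.15, adjusted p = 0.0334) and DERL2 (0.47 ± 0.15, adjusted p = 0.0312). EDEM1 rose less on the log2 scale in senescent cells (−0.51 ± 0.15, adjusted p = 0.0145), where it started higher. In CPM its mean went from 65.3 to 121 in control cells and from 245 to 318 in senescent cells, which is no smaller gain. The DERL1 call was lost without control IMP1088 replicate 1, senescent DMSO replicate 1 or 2, or senescent IMP1088 replicate 1 or 3 (adjusted p of 0.0626 to 0.0706). The DERL2 call was lost without control DMSO replicate 3, control IMP1088 replicate 1, senescent DMSO replicate 2 or 3, or senescent IMP1088 replicate 1 or 3 (adjusted p of 0.0578 to 0.0759). The EDEM1 call was lost without control IMP1088 replicate 1 (−0.44, adjusted p = 0.0602). Among all genes tested 12.1% had a higher and 14.2% a lower response in senescent cells. For DDD86481 14.4% of all genes were called higher and 15.9% lower. EDEM1 again rose less on the log2 scale in senescent cells (−0.59 ± 0.15, adjusted p = 0.00556) and no other ERAD gene was called. SYVN1 and SEL1L did not pass the test with either drug, and the 95% intervals of the difference were wide, from −0.59 to 0.38 for SYVN1 and from −0.46 to 0.42 for SEL1L with IMP1088. The HERPUD1 difference with DDD86481 was 0.36 (95% interval −0.038 to 0.76, adjusted p = 0.158), and it was 0.65 (adjusted p = 0.00258) without control DDD86481 replicate 1, the highest library of its group. The DERL2 difference with DDD86481 was 0.39 (adjusted p = 0.0601).

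**Figure D3:**
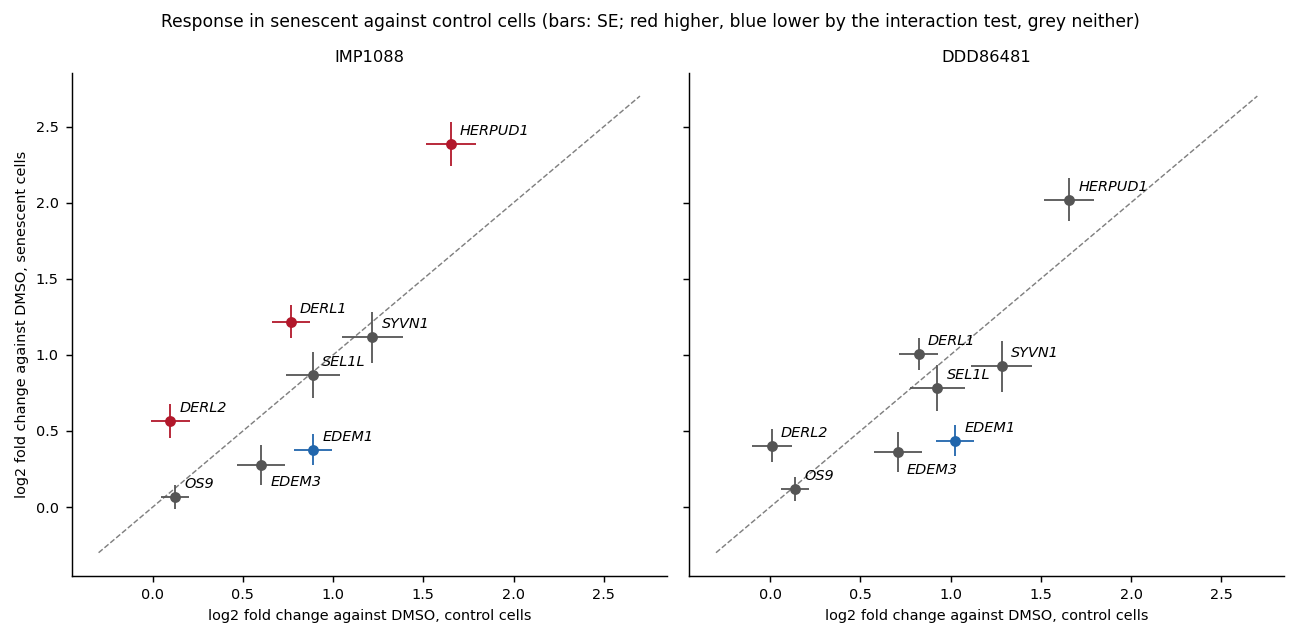
Log2 fold change against DMSO in control cells (x axis) and in senescent cells (y axis) for 8 ERAD genes, with SE bars, for IMP1088 (left) and DDD86481 (right); DERL3 and EDEM2 are left out for low counts, and the dashed line marks equal change. HERPUD1, DERL1 and DERL2 lie above the line with IMP1088 (the DERL1 and DERL2 calls were lost without some single libraries), and EDEM1 lies below it with both drugs.

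As doses differed (300 nM and 1.5 µM), the inhibitors were not tested against each other. HERPUD1 averaged 395 ± 28.6 CPM (SD) with IMP1088 and 307 ± 16.3 with DDD86481 in senescent cells, and 258 ± 16.8 and 259 ± 74.0 in control cells. The comparisons with the 2 drugs also share their DMSO libraries.

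The make-up of the ERAD transcripts shifted with both conditions. OS9 made up 38.8 ± 1.95% (SD) of the summed CPM of the 10 genes in control DMSO and 22.5 ± 1.47% in senescent DMSO, while EDEM1 made up 8.11 ± 0.41% and 24.4 ± 0.44%. HERPUD1 went from 10.3 ± 1.43% in control DMSO to 19.8 ± 0.89% with IMP1088 and 19.1 ± 2.53% with DDD86481. In senescent cells it went from 7.53 ± 0.26% to 22.6 ± 1.54% and 18.9 ± 1.68%. SEL1L changed less as a share, from 17.0 ± 2.96% to 19.4 ± 1.10% with IMP1088 in control cells and from 12.8 ± 1.34% to 13.5 ± 0.42% in senescent cells. Per kilobase of exon, using the union of exons in a GRCh37 annotation, OS9 was first in control DMSO (35.8 ± 0.75 CPM per kb) with HERPUD1 next (16.3 ± 1.49). EDEM1 was first in senescent DMSO (36.3 ± 2.56 CPM per kb), above OS9 (25.9 ± 0.65) without overlap. HERPUD1 was first in each group that received an inhibitor, at 51.1 ± 3.32 and 51.2 ± 14.6 CPM per kb in control cells and 78.0 ± 5.65 and 60.6 ± 3.21 in senescent cells, although its lowest library in control DDD86481 (40.0) overlapped OS9 (38.5 to 40.0).

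**Figure D4:**
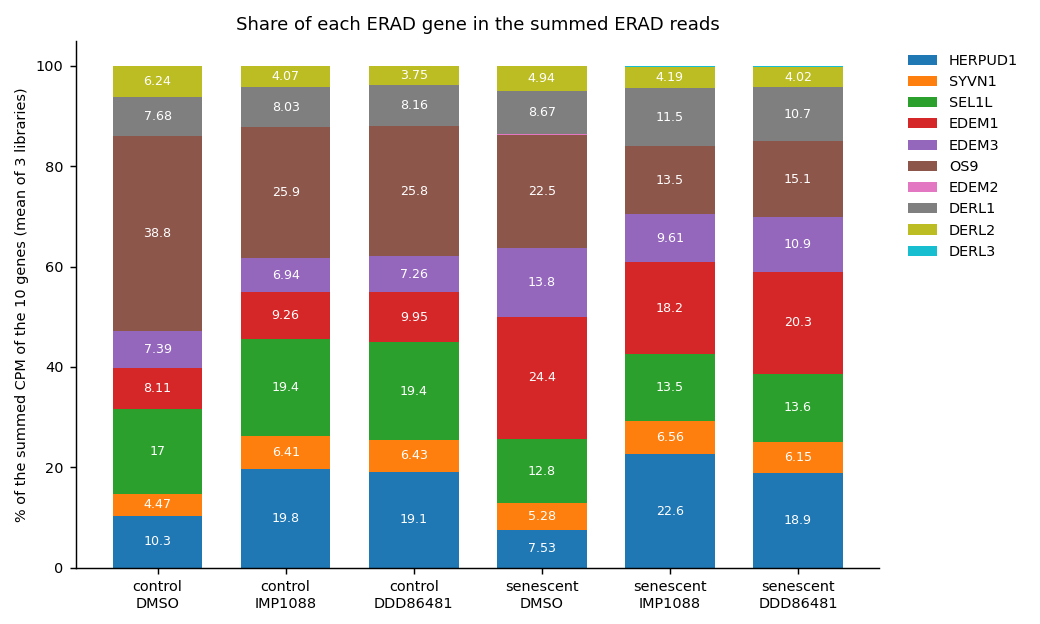
Share of each gene in the summed CPM of the 10 ERAD genes, in percent, as the mean of 3 libraries per group. OS9 is the largest share in control DMSO (38.8%) and EDEM1 in senescent DMSO (24.4%), and HERPUD1 grows from 10.3% and 7.53% in DMSO to 18.9% or more with either inhibitor.

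Levels of the ERAD genes were also compared with each other over the 18 libraries, as Pearson correlations of log2 CPM; the libraries share their groups, so these describe the group pattern and have no p-value. DERL3 is left out of this reading, because it passed the filter only through the libraries where it was high. EDEM1 and EDEM3 were the closest pair (r = 0.99). SYVN1 went with HERPUD1 (r = 0.92) and DERL1 (r = 0.91). HERPUD1 and EDEM1, by contrast, had r = 0.47, and OS9 ran against EDEM1 (r = −0.78). Over the whole table of tested genes the 5 closest to HERPUD1 were DDX18 (r = 0.980), GOSR2 (0.979), HSPA13 (0.979), SLC46A1 (0.977) and SUCO (0.977). HSPA13 is an ER-associated member of the HSP70 family and GOSR2 a SNARE of ER-to-Golgi transport. The closest to SYVN1 were TMEM104 (r = 0.983), SLC1A4 (0.981), OSBP (0.971), XPOT (0.967) and MNT (0.967). The closest to SEL1L were MON2 (r = 0.984), UBE4A (0.971), WDR36 (0.966), RB1 (0.965) and DNAJC3 (0.964), the last an ER co-chaperone.

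A list of 60 other ERAD genes was read beside these 10, all of which were tested. With IMP1088 27 rose and 5 fell in senescent cells (20.6% of all genes tested were called higher and 23.9% lower), and 22 rose and 7 fell in control cells (16.3% and 17.4%). With DDD86481 25 rose and 6 fell in senescent cells (20.1% and 23.1%), and 24 rose and 9 fell in control cells (17.8% and 18.7%). The median log2 fold change was 0.17, 0.14, 0.14 and 0.13 in these 4 comparisons. Both lists were chosen with earlier results of these data known, so their medians are not set against each other. The 8 luminal chaperones and reductases were the group with a rise throughout, 8 of 8 with either inhibitor in either state. HSPA5 (BiP), the main HSP70 chaperone of the ER lumen, rose by a log2 fold change of 1.99 ± 0.15 and 1.71 ± 0.15 in senescent cells with IMP1088 and DDD86481, and by 1.22 ± 0.15 and 1.23 ± 0.15 in control cells. DNAJB9, a co-chaperone of HSPA5, rose by 1.88 ± 0.16, 1.80 ± 0.16, 1.49 ± 0.16 and 1.45 ± 0.16 in the same order. Of the 9 other recognition genes 6 rose with either drug in senescent cells, led by the OS9-related lectin ERLEC1 (1.10 ± 0.095 with IMP1088 and 1.06 ± 0.095 with DDD86481), whereas OS9 itself was not called. In control cells 3 of these 9 rose and 1 fell with IMP1088, and 4 rose and 1 fell with DDD86481. The gene that fell was FBXO2 (−0.76 ± 0.26 and −0.90 ± 0.26). Of the 12 other membrane genes 5 rose and 2 fell with IMP1088 in senescent cells, and 4 rose and 4 fell with DDD86481 (medians of 0.044 and −0.0086). In control cells 3 rose and none fell with either drug. At this number of genes these counts are no result about the group. The genes that rose with IMP1088 in senescent cells included SELENOK (1.05 ± 0.14), SELENOS (0.98 ± 0.13) and FAM8A1, a partner of SYVN1 (0.97 ± 0.11). Of the 14 other ER ubiquitin ligases and conjugating enzymes 6 rose with IMP1088 in senescent cells, with smaller changes, the largest being RNF5 (0.64 ± 0.11). With DDD86481 4 rose in senescent cells, and none fell there with either drug. In control cells 4 rose and 2 fell with IMP1088, and 4 rose and 3 fell with DDD86481. Beside the shares of all genes given above, these counts are small and are no result about these enzymes. Of the 17 cytosolic extraction and shuttling genes 2 rose and 3 fell with IMP1088 in senescent cells, against 20.6% of all genes called higher and 23.9% lower, and 4 rose and 4 fell in control cells, against 16.3% and 17.4%. At this number of genes these counts are near the background and are no result about the group.

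**Figure D5:**
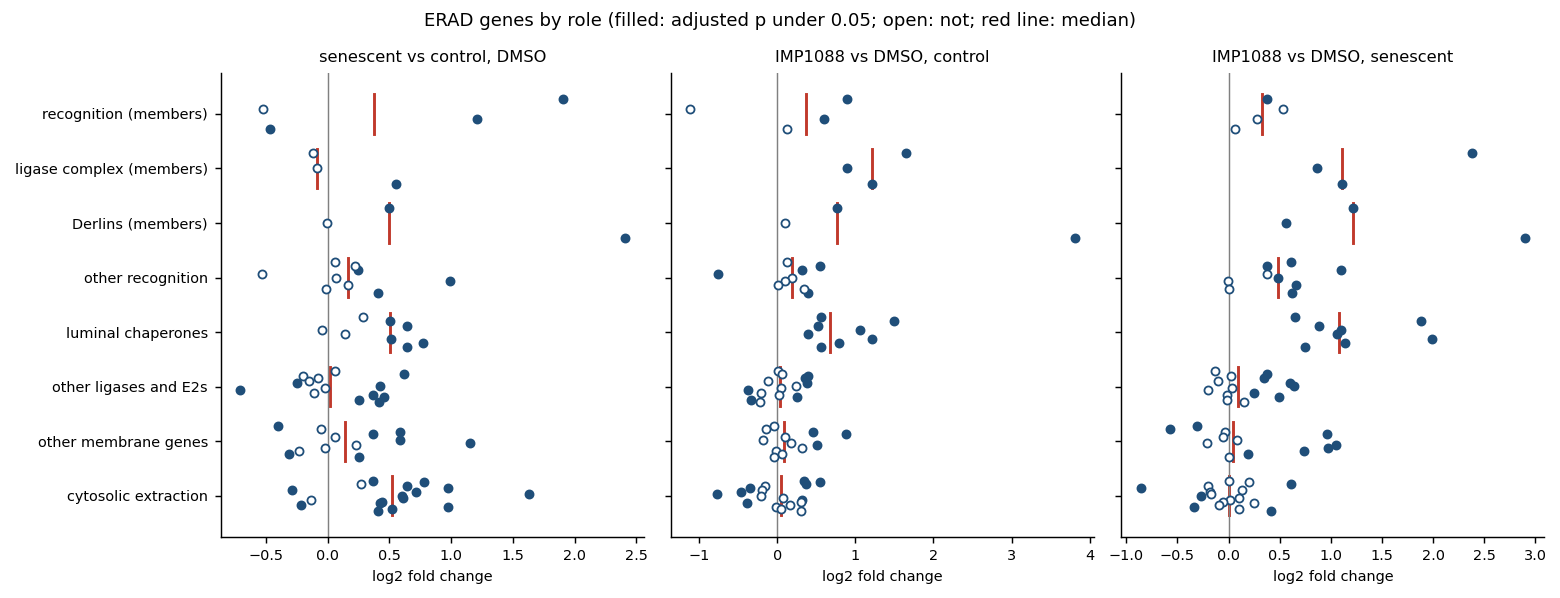
Log2 fold change of the 10 ERAD genes and 60 other ERAD genes by role, with senescence (left), with IMP1088 in control cells (middle) and with IMP1088 in senescent cells (right); filled points passed an adjusted p of 0.05 and the red line is the median of the role. Luminal chaperones rise with IMP1088 in both states (medians 0.67 and 1.08), and cytosolic genes rise with senescence (median 0.52) but centre near 0 with IMP1088.

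With senescence the roles stood in another order. Of the 60 other genes 32 rose and 6 fell, where 32.5% of all genes tested were called higher and 36.0% lower, with a median log2 fold change of 0.28. Of the 17 cytosolic genes 13 rose and 2 fell, led by SVIP, an inhibitor of ERAD that binds VCP (1.63 ± 0.15, adjusted p = 4.67e-09). Of the 12 other membrane genes 5 rose and 2 fell, and of the 9 other recognition genes 3 rose and none fell. At these numbers of genes the counts are no result about either role. The largest rises in them were RHBDD1, a rhomboid protease of the ER membrane (1.15 ± 0.12), and MAN1B1, a mannosidase that trims glycans on misfolded proteins (0.99 ± 0.078). Of the luminal chaperones and reductases 5 of 8 rose, led by SDF2L1 (0.77 ± 0.20), TXNDC11 (0.64 ± 0.10) and DNAJC10 (0.64 ± 0.11). HSPA5 (0.51 ± 0.14) and DNAJB9 (0.50 ± 0.16) changed less than with either inhibitor, which did not hold for every gene of this role. TXNDC11 averaged 36.4 CPM in control DMSO, 56.8 in senescent DMSO and 53.4 in control IMP1088. DNAJC10 averaged 174, 271 and 249 CPM in the same groups.

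The transcription factors known to act on ERAD genes were read from the same table. XBP1 averaged 162 ± 26.1 CPM (SD) in control DMSO and 90.5 ± 2.59 in senescent DMSO and fell by 0.84 on the log2 scale (adjusted p = 4.46e-06), and ATF4 fell by 0.67 (adjusted p = 0.000201). DDIT3 (CHOP) rose by 0.71 ± 0.21 (adjusted p = 0.00467), and ATF6 was not called (0.21, adjusted p = 0.107). In senescent cells all 4 rose with both inhibitors: ATF4 by 1.35 ± 0.14 and 1.30 ± 0.14, XBP1 by 0.78 ± 0.12 and 0.90 ± 0.12, DDIT3 by 1.75 ± 0.20 and 1.31 ± 0.20 and ATF6 by 0.62 ± 0.11 and 0.37 ± 0.11, for IMP1088 and DDD86481. In control cells DDIT3 rose by 1.78 ± 0.20 and 1.61 ± 0.20 and ATF6 by 0.32 ± 0.11 and 0.38 ± 0.11. ATF4 was called with IMP1088 (0.38 ± 0.14, adjusted p = 0.0382) and not with DDD86481 (0.32, adjusted p = 0.073), at values close to each other. With 1 library left out these were 0.26 to 0.55 and 0.20 to 0.49, and a difference between the drugs was not tested. XBP1 passed with neither drug in control cells (0.30, adjusted p = 0.0646, and 0.27, adjusted p = 0.0864). These are total transcript levels, and splicing of XBP1 and cleavage of ATF6, by which these factors are known to be activated, were not measured.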

How the data were processed

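Poly(A) RNA from 18 libraries was sequenced single-end on an Illumina NextSeq instrument, with a directional kit. The authors deposited raw counts per gene. The sources name different steps for them: the study's methods give TopHat 2 with the older human build, and the submitters' processing notes give STAR 2.7.8a, DRAGEN and hg38 with DESeq2 1.32.0. The methods give a first-strand library setting and an Ensembl annotation for the TopHat alignment, the processing notes give neither for STAR and DRAGEN, and which of them made the deposited counts is not settled. The columns labelled PCLX001 in the table were taken as DDD86481 from the sample labels.

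Groups came from the sample labels. The 10 genes and the list of 60 others were chosen with earlier results of these data known. Genes were filtered with filterByExpr (14341 of 28266 rows kept; 6836 rows had no count), scaled by TMM and fitted over all 6 groups with edgeR 4.0.16 (glmQLFit, glmQLFTest, R 4.3.3). P-values were adjusted by Benjamini-Hochberg over all genes tested, at 0.05. Differences of response were contrasts of that fit. Log2 CPM used a prior count of 2. Totals and counting intervals cover counting error only.

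All 10 genes were named in every comparison; of the 60, up to 3 per role and comparison with the largest change among those called were eligible to be named. Promoters came from RefSeq, and exon lengths and overlaps from a GENCODE annotation on GRCh37, which is not matched to the build of the counts. Alternatives were RLE and upper quartile scaling, no filter, DESeq2 1.42.0, a replicate block, a fit of only the groups compared and leaving out each library. Replicate numbers were checked for pairing: all 3 same-numbered pairs of control DMSO and control IMP1088 deviated together (r of 0.394, 0.123 and 0.231), and no other pair of groups compared had all 3 above 0.1. Libraries with different numbers were not compared, so whether these groups are paired was not tested, and the labels do not say so. The statistical scripts were tested on simulated data.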

Additional observations from a re-analysis of the deposited data

Results flagged for a closer look

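For 5 results the test of a difference in response between senescent and control cells was passed. With IMP1088 the senescent response exceeded the control response by 0.73 on the log2 scale for HERPUD1, 0.45 for DERL1 and 0.47 for DERL2, and the same difference was −0.51 for EDEM1. With DDD86481 it was −0.59 for EDEM1. The HERPUD1 difference and the EDEM1 difference with DDD86481 passed without any 1 of the 12 libraries they rest on. The DERL1 difference was lost in 5 of those 12 fits, with adjusted p up to 0.0706 (without senescent DMSO replicate 2), and the DERL2 difference in 6, with adjusted p up to 0.0759 (without control DMSO replicate 3). The EDEM1 difference with IMP1088 was lost without control IMP1088 replicate 1 (−0.44, adjusted p = 0.0602).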

How the results depend on the processing

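The rise or fall of every ERAD gene called in the 5 comparisons of group pairs kept its direction and its call under both other scalings, without the filter, with DESeq2 and with the replicate block, and EDEM3 with DDD86481 in senescent cells was the 1 call lost when a library was left out. With the replicate block the counts of called ERAD genes were those of the fit without it in all 7 comparisons (7 with IMP1088 in control cells, 4 for the IMP1088 difference). Fitting only the groups compared left DERL3 untested with senescence and with DDD86481 in control cells, passed EDEM3 with IMP1088 in senescent cells (0.31, adjusted p = 0.00203), and gave fewer calls in control cells: 2716 genes with IMP1088 and 2842 with DDD86481, and 16 and 15 of the other ERAD genes; the cause was not tested. For the DDD86481 difference 2 ERAD genes were called with DESeq2 and 2 with upper quartile scaling, DERL2 (0.39 and 0.45) being added.

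Leaving out 1 library gave 1 to 3 ERAD genes called for the DDD86481 difference and 1 to 5 for the IMP1088 difference, the lowest without control IMP1088 replicate 1, and 12 to 29 and 10 to 27 of the other ERAD genes. Reversals touched only values that were not called. DERL2 with senescence was 0.028 with DESeq2, 0.027 with RLE scaling, 0.025 without the filter and 0.015 in the fit of only the groups compared, and −0.082 to 0.12 with 1 library left out. DERL2 with DDD86481 in control cells was −0.056 with upper quartile scaling and −0.067 to 0.13 with 1 library left out. The DDD86481 difference of OS9 was 0.018 in the fit of only the groups compared and 0.026 with upper quartile scaling (−0.095 to 0.025 with 1 library left out), and the IMP1088 difference of SEL1L was 0.014 and 0.028 (−0.14 to 0.16). With 1 library left out the DDD86481 differences were −0.27 to 0.031 for SEL1L and −0.82 to 0.084 for DERL3, SEL1L with senescence was −0.26 to 0.035, and EDEM2 was −0.55 to 0.29 with DDD86481 in control cells, −0.11 to 0.85 in senescent cells and −0.82 to 0.011 with senescence. Upper quartile scaling moved the median of all genes by −0.15 with senescence. Of the results for other named genes, 15 lost their call and 2 gained one under these settings (553 did neither), and 31 lost and 5 gained it with 1 library left out (534 did neither).

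Counts limit DERL3 and EDEM2. The bulk RNA cannot separate a change per cell from a change in which cells were present, and total transcript says nothing of protein or of degradation itself.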
